A study of Mus musculus with 5 samples.

Results

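In macrophages grown from the bone marrow of 8-week-old C57BL/6 mice and exposed to LPS, 169 of the 13339 genes listed had their highest transcript level at 8 h or 12 h and a lower level both at 4 h and at 24 h. LPS, lipopolysaccharide, is an outer membrane component of Gram-negative bacteria. Marrow cells had spent 5 days in medium with M-CSF, the growth factor that turns them into macrophages, and then received LPS at 100 ng/ml. RNA was sequenced at 0 h (no LPS), 4 h, 8 h, 12 h and 24 h, with 1 library per time point and no replicates. The sample titles carry WT in all 5 groups and no allele is named. Untreated cells kept in culture for the same times were not analysed here, so the effects of LPS and of longer culture cannot be told apart. In the labels, 1 protocol field speaks of mDCs where the other fields speak of bone marrow-derived macrophages.

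The 169 genes were selected on the values described here. Each had a larger value of 8 h and 12 h that was at least 10 FPKM, at least 2 times the value at 0 h and at least 1.5 times the values at both 4 h and 24 h. FPKM counts sequenced fragments relative to the length of the transcript and the size of the library. Genes whose symbols start with Slc, Rab, Zfp, Trim, Usp, Il, Ccl or Cxcl were left out, which removed 16 of 185 genes. The members were 1.27% of the genes listed. They were 15.5% of the 1089 genes (8.16% of all) that passed the bounds on level and on 0 h alone. The other 920 of these 1089 are called the other induced genes below. Of those, 418 missed the bound against 4 h only, 232 the bound against 24 h only and 254 both, and 16 were left out by name. Because the rule used all 5 libraries, the differences between times among members are a description and carry no test.

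LPS acts on macrophages through the receptor TLR4, which switches on NF-kappaB and, through interferon regulatory factors, the release of type I interferon. The first genes to respond encode cytokines and inhibitors of the pathway. Interferon and other secreted signals then act back on the same cells through their own receptors and induce further genes, among them those for antiviral proteins, the immunoproteasome and nitric oxide synthesis. The immunoproteasome is a form of the proteasome with exchanged catalytic subunits that cuts proteins into peptides for display on MHC class I.

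The markers set against the label were those of macrophages. All 10 were above 0 in every library, and their summed level lay between 2295 FPKM at 4 h and 3674 FPKM at 0 h. The summed level of 8 neutrophil markers was 342 FPKM before LPS, then 324, 255 and 182 FPKM at 4, 8 and 12 h, and 60.8 FPKM at 24 h. Mpo was at 0 at 24 h, while Ly6g was higher there (3.71 FPKM) than at 0 h (0.12), and S100a8 was highest at 8 h (144 FPKM). Dendritic cell markers (9 genes) summed to 19.7 to 53.7 FPKM, with Itgax the largest share except at 24 h, and T, B and NK cell markers (7 genes) to 2.04 to 9.57 FPKM. Stromal and endothelial markers (10 genes) summed to 12.3 to 46.2 FPKM, with the vascular receptor gene Kdr the largest share at 8 h and 12 h. The part of these cells in the members' values was not tested, and in bulk RNA a change in the number of cells of a type and a change in RNA per cell cannot be told apart. The depth, estimated from the steps between low values, was 18.8 to 19.5 megareads per library. A 1 kb transcript at 10 FPKM would then have given 188 reads, and counting error alone puts it between 8.62 and 11.5 FPKM (95% Poisson interval). The share of the median gene was not constant: relative to 0 h its log2 ratio was -0.83, -0.58, -0.42 and -0.13 at 4, 8, 12 and 24 h.

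That shift bears on who is a member. When each library was centred on its median gene, 198 genes met the rule, and 123 of the 169 members were among them. All 46 that dropped out did so because they missed the bound against 4 h, and 0 missed the bound against 24 h. A scaling to the upper quartile kept 155. With the trend by transcript length removed, 122 members remained, and 119 remained under both this and the centring. The text below gives these counts wherever a group of members depends on them.

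Most members were near their highest level at both 8 h and 12 h. Of the 169, 82 were highest at 8 h and 87 at 12 h. The order depends on the scaling: the genes that met the rule were 105 and 93 with centred libraries, 107 and 90 with the upper quartile and 113 and 95 with the length trend removed. The values at 8 h and 12 h lay within 1.3-fold of each other for 100 members and were at least 2-fold apart for 11. In 152 members both 8 h and 12 h were above 4 h and 24 h, and in 76 both were at least 1.5 times those values. As medians over members, the level before LPS was 12.9% of the peak, that at 4 h 45.4% and that at 24 h 47.0%, with 99.0% and 100% at 8 h and 12 h. The side of the peak with the higher level was evenly divided, with 80 members higher at 4 h than at 24 h. Among the other induced genes, 61.2% were higher at 8 h than at 12 h, and among all genes with a mean of at least 1 FPKM 35.7% were. Peak levels ran from 10.42 to 2885 FPKM with a median of 78.6. The ratio of the peak to 0 h had a median of 7.72, was under 4 in 53 members, at least 10 in 73 and at least 100 in 23. Against the larger of 4 h and 24 h the median ratio was 1.81, with 53 members at 2 or more and 13 at 3 or more. Ratios to 0 h rest on few reads in some genes, since 8 members had an estimated depth of fewer than 10 reads at 0 h.

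**Figure D1:**
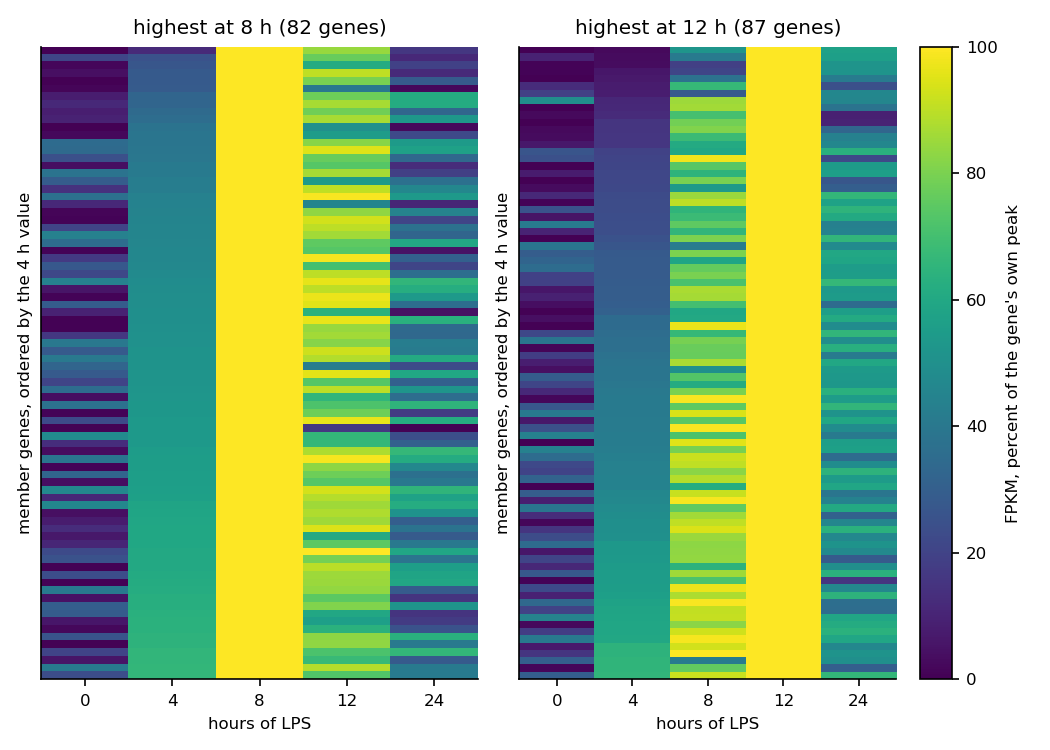
Level of each member (rows, ordered by the 4 h value) in the 5 libraries (columns, hours of LPS) as percent of the member's own peak, from dark blue at 0 to yellow at 100, with the 82 genes highest at 8 h on the left and the 87 highest at 12 h on the right. The columns of 8 h and 12 h are yellow or light green in most rows, and those of 4 h and 24 h are of intermediate colour, with medians of 45.4% and 47.0%, as the rule requires.

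Roles were assigned to the members by hand from what their products are known to do. The largest groups were receptors and surface proteins (29 members), signalling proteins (24), proteins of the cytoskeleton and membrane traffic (19) and interferon-stimulated or antiviral genes (17). Below, series of 5 values are levels in FPKM at 0, 4, 8, 12 and 24 h, in that order.

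The 8 antigen processing members all encode parts or partners of the machinery that makes and loads MHC class I peptides. Psmb8, Psmb9 and Psmb10 encode the 3 catalytic subunits of the immunoproteasome. Psmb8 stood at 104 FPKM before LPS, then 209 after 4 h, 430.5 after 8 h, 475 after 12 h and 232 after 24 h. Psmb9 was at 36.98, 95.6, 156, 134 and 91.4. Psmb10 was at 72.2, 159.7, 333, 299.9 and 121. All 3 were lowest before LPS, already higher at 4 h, highest at 8 h or 12 h, and at 24 h still 1.67 to 2.47 times their 0 h value. The PA28 regulator, a cap that opens the proteasome, is encoded by Psme1 and Psme2. Psme1 had 165, 230.0, 463, 521 and 286. Psme2 had 147, 453, 896, 771 and 303, the highest level of the group at 8 h and 12 h. Tap2 encodes a subunit of the pump that carries peptides into the endoplasmic reticulum and had 30.6, 129, 199, 199 and 102. Tapbp encodes tapasin, which links that pump to MHC class I, and had 219.7, 482, 673, 734 and 486. Tap2 and Tapbp were at 64.8% and 65.7% of their peaks at 4 h, near the limit the rule allows. Psma6, a subunit common to both forms of the proteasome, had 84.5, 176, 281, 227 and 145.

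The standard catalytic subunits, which the immunoproteasome subunits replace, did not meet the rule. Psmb5 had 113, 63.7, 95.97, 130.0 and 157, highest at 24 h. Psmb6 had 186, 174, 249.8, 218 and 122, highest at 8 h but less than 2 times its 0 h value. Psmb7 had 101, 87.3, 124, 126 and 120.0, nearly level from 8 h on. Among the partners, Tap1 had 23.4, 267, 308, 261 and 209, and missed the bounds against both 4 h and 24 h. B2m, the light chain of MHC class I, had 2689.8, 3038, 4815, 5229 and 5708, with no decline at 24 h. On a list of 42 measured genes of antigen presentation and T cell co-signals, 28 passed the bounds on level and 0 h. Of these, 9 were members (32.1%, beside 15.5% of all induced genes). All 9 were either antigen processing genes or the co-signal receptors Slamf1 and Slamf8. The 4 antigen processing genes that met the rule both with centred libraries and with the length trend removed were Psmb8, Psmb10, Psme1 and Psme2. Psmb9, Tap2, Tapbp and Psma6 missed the 4 h bound on centring.

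**Figure D2:**
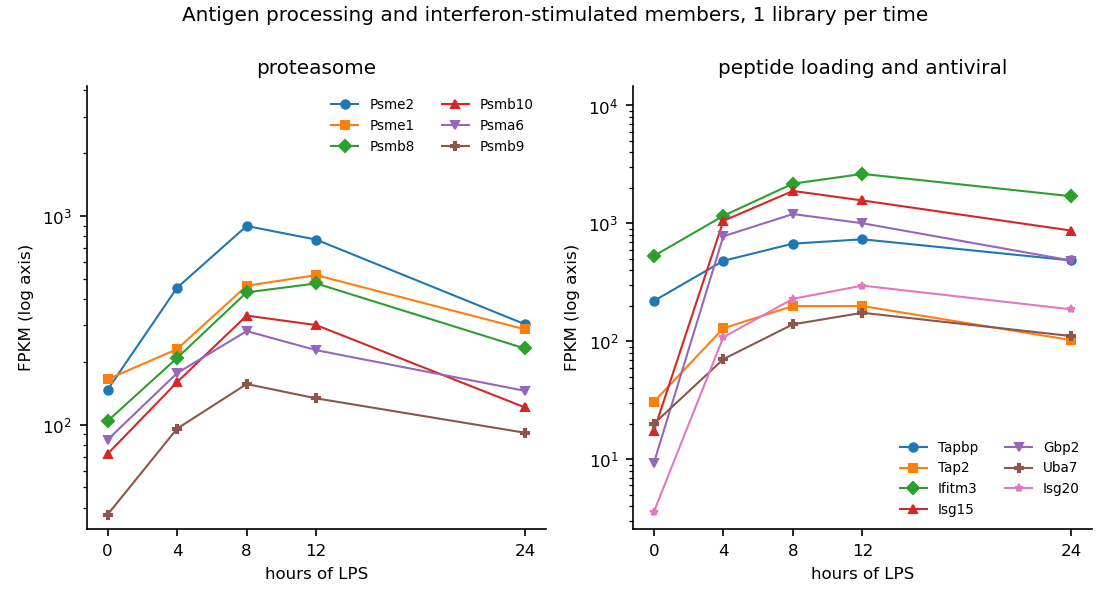
FPKM (log axis) against hours of LPS, 1 library per point, for the 6 proteasome members on the left and, on the right, Tapbp and Tap2 with 5 of the interferon-stimulated and antiviral members. Every line is highest at 8 h or 12 h, and Isg15, Gbp2 and Isg20 start lowest in the right panel and cover the widest range.

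Of the 17 interferon-stimulated and antiviral members, 16 at 24 h exceeded 0 h by 2-fold or more on the log2(FPKM + 1) scale, as did 60.9% of all members and 69.6% of the other induced genes. Isg15, a ubiquitin-like protein that is attached to other proteins during infection, was at 17.2 FPKM before LPS, then 1051 after 4 h, 1886 after 8 h, 1565 after 12 h and 869.6 after 24 h. Its 4 h level was 55.7% of the peak and its 24 h level 46.1%. Uba7, the enzyme that activates Isg15, had 19.9, 70.6, 139, 175 and 111, with a later peak and a smaller range. Ifitm3, a membrane protein that hinders the entry of viruses, had 529, 1160.1, 2173, 2629 and 1700.5. Ifitm2, its relative, had 527, 792, 1279, 1071 and 365. The pair had nearly equal levels before LPS, and at 24 h Ifitm3 was 3.21 times its 0 h value and Ifitm2 0.693 times. Isg20, an exonuclease, had 3.56, 108, 229, 297 and 187, highest at 12 h. Zbp1, a sensor of Z-form nucleic acid, had 11.4, 199.6, 360.4, 316 and 239.6, highest at 8 h. Oas1a, of the family that makes the activator of RNase L, had 41.2, 209, 368, 327 and 211. Oas1g peaked at 111 FPKM at 8 h, Mov10, an RNA helicase, at 93.03 FPKM at 12 h and Parp10, an ADP-ribosyltransferase, at 119 FPKM at 12 h.

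Guanylate-binding proteins and their relatives are interferon-induced GTPases that attack the vacuoles of intracellular pathogens. Gbp2 had 9.22, 778, 1201, 1003 and 484. Gbp6 had 0.73, 91.8, 209, 218 and 122. Gbp4 had 0.25, 18.4, 35.2, 59.1 and 33.2, from about 21 reads at 0 h. The 3 differed in timing: Gbp2 was lower at 12 h than at 8 h, Gbp6 was about level, and Gbp4 was 1.68 times higher at 12 h. Tgtp2, a GTPase of the related IRG family, had 2.24, 187, 302, 257 and 181. Phf11b peaked at 554 FPKM at 8 h and its neighbour Phf11a at 175 FPKM at 12 h, and Pydc4, of the pyrin-domain family, at 87.2 FPKM at 8 h. Gbp, Tgtp, Oas1, Phf11 and Ifitm genes have close copies in the genome, so their values depend on how reads were divided between copies and are uncertain.

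Most interferon-stimulated genes did not meet the rule. Of 41 measured genes on a list of them, 40 passed the bounds on level and 0 h, and 6 of those 40 were members, a share near the 15.5% over all induced genes. Rsad2, which encodes viperin, was highest at 4 h with 14.7, 3928, 2275, 1864 and 1993. Ifit2, which binds viral RNA, was also highest there with 16.6, 1766, 1514, 1262 and 854. Of 18 GTPases on another list 14 passed the bounds on level and 0 h, and 4 were members (28.6% of the 14). Gbp5, no member, was highest at 4 h with 1.87, 1113, 877, 548 and 189, a course unlike that of Gbp2, Gbp4 and Gbp6. With centred libraries 10 of the 17 members still met the rule, among them Isg15, Ifitm3, Isg20, Gbp6 and Gbp4, and with the length trend removed 8 did, with Isg15 and Zbp1 then also outside the rule. Gbp2, Ifitm2, Oas1a and Tgtp2 were among those that missed the 4 h bound on centring.

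Promoters of 4 members are shown here, since interferon-stimulated genes are known to carry a shared element, the ISRE, near their start. The sequences are from RefSeq (GRCm38.p6), run 5′ to 3′ on the gene's own strand from 250 bases before the transcription start to 50 bases after it, and were chosen after their letters were seen. Isg15 (chr4:156200769-156201068, minus strand) holds 3 overlapping matches to the ISRE core, which is GAAA, 2 bases of any kind and GAAA again, searched on both strands. Gbp2 (chr3:142620413-142620712, plus strand) holds 1 ISRE core and, just after the start, 1 match to an NF-kappaB pattern, GGG and TTCC with 3 bases between, both read on the opposite strand. Lgals9 (chr11:78984875-78985174, minus strand), a galectin gene, holds an ISRE core on either side of the start, both on the opposite strand. Psmb8 (chr17:34197945-34198244, plus strand) holds no ISRE core and 1 match to the GAS element of STAT factors, TTCNNNGAA. The capitals mark these matches.
Isg15: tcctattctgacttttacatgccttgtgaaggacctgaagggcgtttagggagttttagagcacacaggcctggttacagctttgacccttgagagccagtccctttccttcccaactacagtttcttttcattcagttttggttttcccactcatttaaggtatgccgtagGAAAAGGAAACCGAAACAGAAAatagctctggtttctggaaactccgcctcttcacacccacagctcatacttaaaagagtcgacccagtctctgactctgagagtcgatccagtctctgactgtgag
Gbp2: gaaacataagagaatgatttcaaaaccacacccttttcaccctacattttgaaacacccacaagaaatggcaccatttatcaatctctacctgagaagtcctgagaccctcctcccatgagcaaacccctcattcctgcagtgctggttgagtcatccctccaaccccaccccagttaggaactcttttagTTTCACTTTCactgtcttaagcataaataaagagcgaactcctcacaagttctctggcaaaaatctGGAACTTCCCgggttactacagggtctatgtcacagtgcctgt
Lgals9: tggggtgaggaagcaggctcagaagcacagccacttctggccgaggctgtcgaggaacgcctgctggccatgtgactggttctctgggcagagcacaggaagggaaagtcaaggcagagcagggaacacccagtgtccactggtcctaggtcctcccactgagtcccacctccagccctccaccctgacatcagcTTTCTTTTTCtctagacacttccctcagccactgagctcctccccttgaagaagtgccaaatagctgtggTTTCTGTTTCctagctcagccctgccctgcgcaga
Psmb8: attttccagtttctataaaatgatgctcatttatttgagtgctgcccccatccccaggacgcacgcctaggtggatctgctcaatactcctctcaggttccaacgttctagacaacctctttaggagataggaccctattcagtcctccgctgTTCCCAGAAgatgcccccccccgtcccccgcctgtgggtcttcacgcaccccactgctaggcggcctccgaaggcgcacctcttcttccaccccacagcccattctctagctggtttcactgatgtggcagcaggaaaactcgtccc

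A promoter was found for 139 of the 169 members (82.2%), for 755 of the other induced genes and for 10681 of all genes listed. The ISRE core was in 12.2% of the members' promoters, in 11.7% of those of the other induced genes and in 4.00% of all. A stricter form, GAAAC, any base and GAAA, which is contained in the core, was in 4.32%, 3.44% and 0.871%. Within the members the ISRE core sat mostly in 1 group: 10 of the 13 interferon-stimulated and antiviral members with a promoter held it (76.9%), against 1 of 7 antigen processing members. Both groups also had few CpG dinucleotides in their promoters: the median ratio of observed to expected CpG was 0.15 in the interferon-stimulated group, 0.54 in the antigen processing group, 0.61 over members and 0.75 over all genes. GAS letters were in 10.1% of members' promoters, 10.9% of those of the other induced genes and 8.32% of all. The NF-kappaB pattern was in 7.91%, 9.80% and 7.42%. AP-1 letters, TGANTCA, were in 10.1%, 9.27% and 6.58%, and the hypoxia element, GACGTG, in 8.63%, 10.1% and 10.6%. The antioxidant element, TGACNNNGC, was in 10.8% of members' promoters, 18.5% of those of the other induced genes and 16.9% of all. TATAAA was in 12.9%, 12.6% and 9.16%. A match of letters describes the window and no binding was measured.

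**Figure D3:**
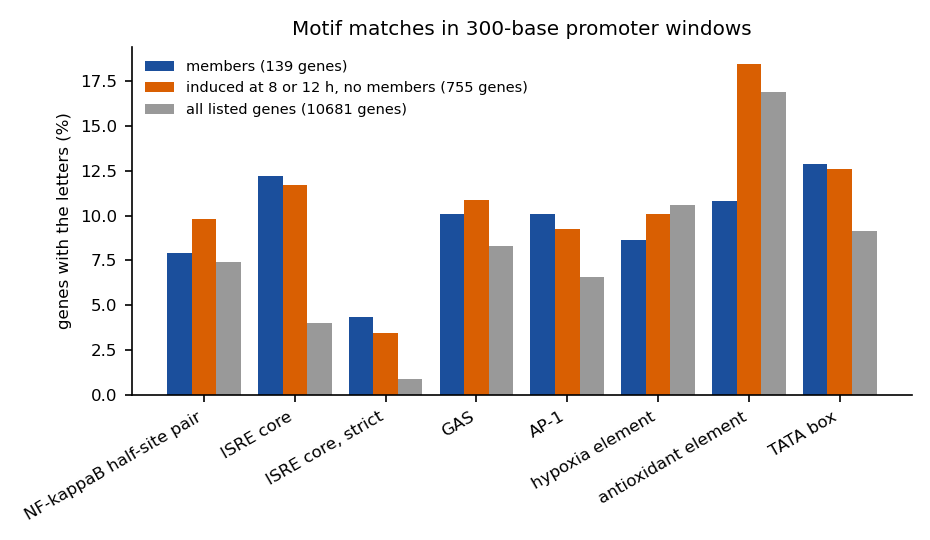
Percent of genes whose promoter windows hold each motif (vertical axis), for members (blue, 139 genes), other induced genes (orange, 755) and all genes listed with a promoter (grey, 10681). The ISRE core is at 12.2% and 11.7% in the first 2 sets and at 4.00% over all genes, and the antioxidant element is lowest in members, at 10.8%.

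Secreted proteins made up 15 members. Csf3, the granulocyte growth factor G-CSF, stood at 0.04 FPKM before LPS, then 5.47 after 4 h, 28.1 after 8 h, 35.7 after 12 h and 3.6 after 24 h. The value before LPS corresponds to about 1 read at the estimated depth, and the 24 h level was 10.1% of that at 12 h. Csf3r, its receptor, was also a member, with 38.1, 84.7, 187, 168 and 69.5. Ebi3, which pairs with p28 to form the cytokine IL-27, had 55.02, 255, 429, 406 and 164. Gdf15, a stress-induced cytokine, had 30.3, 65.5, 41.5, 100.2 and 50.1. Its course was uneven, with the 8 h value below that at 4 h. A list of cytokines and growth factors drawn up outside the Il, Ccl and Cxcl names, but including Cxcl16, held 31 measured genes. From that list, 8 passed the bounds on level and 0 h. Of these, 3 were members, Ebi3, Gdf15 and Csf3 (37.5%, beside 15.5% of all induced genes). Tnf, on the same list, was highest at 4 h with 9.93, 2183, 748, 379 and 189.

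Soluble recognition and matrix proteins had more varied courses. Ptx3, a soluble pattern receptor, had 0.87, 17.5, 60.95, 24.4 and 1.42. It was at its peak at 8 h only, and at 24 h it was at 2.33% of that peak. Thbs1, a matrix protein that also binds growth factors, had 12.3, 29.2, 79.9, 122 and 54.1, with the peak at 12 h. Mmp14, a membrane-bound metalloproteinase, had 17.6, 260.2, 464, 341 and 186. Mmp25, of the same class, had 0.2, 9.19, 17.3, 13.5 and 2.93. Both metalloproteinases were highest at 8 h. F10, coagulation factor X, had 25.4, 222, 346, 415 and 195. The 5 genes Mmp14, F10, Thbs1, Ptx3 and Mmp25 were the members on a list of 45 adhesion and matrix genes. Of that list 20 passed the bounds on level and 0 h, and the members were 25.0% of these, beside 15.5% of all induced genes.

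Other secreted members bind sugars, copper or proteases. Lgals9, a galectin that binds sugars on immune receptors, had 48.8, 273, 578, 586 and 259. Wfdc17, a small protein of the antiprotease family, had 257, 285, 733, 604 and 400.4. Cp, the copper protein ceruloplasmin, had 0.95, 78.6, 218, 224 and 109. Lgals9 and Cp were nearly equal at 8 h and 12 h, and Wfdc17 was higher at 8 h. Cst7, an inhibitor of lysosomal cathepsins, peaked at 125 FPKM at 12 h, Lox, which cross-links collagen, at 66.9 FPKM at 12 h, Glipr2 at 43.7 FPKM at 8 h and Olfm1 at 25.5 FPKM at 8 h. Of the 15 secreted members, Olfm1, Wfdc17, Gdf15 and Ptx3 were within 2-fold of 0 h at 24 h, and the other 11 were higher. With centred libraries F10, Mmp14, Gdf15 and Ebi3 missed the 4 h bound.

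Receptors and surface proteins formed the largest group, with 29 members. Clec4e, the C-type lectin Mincle that recognises mycobacterial cord factor, was the most abundant at 12.7 FPKM before LPS, then 776 after 4 h, 1576 after 8 h, 1529 after 12 h and 855 after 24 h. Fpr2, a receptor for formylated peptides, had 2.43, 163, 328, 317 and 209. Both went from low levels before LPS to nearly equal values at 8 h and 12 h, and at 24 h they were at 54.3% and 63.6% of the peak. Tarm1, an activating receptor of myeloid cells, had 0.17, 51.1, 192, 240.2 and 64.2, with about 5 reads at 0 h. Its peak was 3.74 times the larger of 4 h and 24 h. Pilra, an inhibitory receptor, had 2.19, 19.8, 25.8, 51.2 and 27.9. Pilrb2, of the paired activating family, had 3.77, 6.16, 11.6, 17.3 and 11.3. Pilra and Pilrb2 lie near each other on chromosome 5 and were both higher at 12 h than at 8 h. They belong to a family of close copies, so their separate values are uncertain. Igsf6, Lrrc25 and Milr1, which encode surface proteins of myeloid cells, were present before LPS at 43.8 to 128 FPKM and at the peak were 4.06 to 4.47 times as high.

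Among cytokine and growth factor receptors, Csf2rb, the shared beta chain of the receptors for GM-CSF, IL-3 and IL-5, had 70.3, 67.9, 128, 161 and 91.1. Its 4 h value was no higher than that before LPS. Axl, a receptor kinase in the uptake of dead cells, had 25.1, 74.8, 116, 128 and 45.8. Eng, an accessory receptor of the TGF-beta family, peaked at 46.7 FPKM at 8 h, and Acvr1b, an activin receptor, at 25.7 FPKM at 12 h. Ccr7, the chemokine receptor that guides cells to lymph nodes, had 1.2, 4.82, 14.8, 11.5 and 9.13, a low level throughout. It was the only member among the dendritic cell markers, and the rest of that list, Itgax aside, stayed below 5 FPKM in every library. Of a list of 69 measured cytokine, chemokine and pattern receptors, 34 passed the bounds on level and 0 h. Of these, 7 were members (20.6%, beside 15.5% of all induced genes): Clec4e, Fpr2, Csf3r, Csf2rb, Pilra, Adora2b and Ccr7.

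Slamf1, a co-signalling receptor of immune cells, stood at 0.34 FPKM before LPS, then 16.99 after 4 h, 143 after 8 h, 121 after 12 h and 23.4 after 24 h. The values at 8 h and 12 h were over 5 times those at 4 h and 24 h. Slamf8, of the same family, had 28.6, 48.6, 98.5, 94.2 and 35.4, with a smaller range. Adora2b, a receptor for adenosine, had 0.91, 13.01, 48.9, 30.01 and 9.54. Hcar2, a receptor for niacin and beta-hydroxybutyrate, had 0.8, 38.7, 50.1, 69.9 and 10.9. Adora2b was highest at 8 h and Hcar2 at 12 h. Shisa3, which hinders the maturation of Frizzled and FGF receptors, had 0.1, 17.3, 45.5, 22.8 and 1.14, from about 7 reads at 0 h. It was at 2.50% of its peak at 24 h. Olfr56, of the olfactory receptor family, had 0.03, 6.17, 8.6, 13.9 and 8.23, from about 1 read at 0 h. Mcemp1, a membrane protein of myeloid cells, had 3.23, 1.35, 4.84, 17.1 and 7.91 and was lowest at 4 h.

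The other surface members, among them the scavenger receptor Scarf1, the endocytic receptor Ly75 (DEC-205), the LDL receptor relative Lrp10, the lysophosphatidic acid receptor Lpar1, the pantetheinase Vnn3, Enpp4, Ntng2 and Gpr141, peaked between 10.8 and 181 FPKM. Ntng2 stood out among them with a peak 3.35 times the larger of 4 h and 24 h. With centred libraries 22 of the 29 met the rule, and those that did not were Acvr1b, Lpar1, Axl, Lrp10, Igsf6, Hcar2 and Milr1.

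All 10 members with roles in prostaglandin and lipid metabolism met the rule with centred libraries, with the upper quartile and with the length trend removed. Pla2g4a, the cytosolic phospholipase that releases arachidonic acid, was at 4.68 FPKM before LPS, then 17.4 after 4 h, 48.6 after 8 h, 42.1 after 12 h and 25.8 after 24 h. Ptges, the inducible synthase that makes prostaglandin E2, was at 1.27, 52.5, 390.2, 453 and 173. Its 8 h value was 7.44 times its 4 h value. Ptgs2, the cyclooxygenase that acts between them, was no member: it was highest at 4 h, with 0.55, 658, 359.7, 248 and 81.98. At 12 h, when Ptges was at its highest, Ptgs2 was well below its 4 h level. Lpcat2, which makes platelet-activating factor and remodels phospholipids, had 19.6, 28.9, 55.4, 49.7 and 28.8. Pla2g16, a phospholipase of fat cells, had 0.86, 9.67, 23.4, 17.3 and 2.94, and was at 12.6% of its peak at 24 h.

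Dgat2, the last enzyme of triglyceride synthesis, stood highest above its flanking times of all members, with 0.6 FPKM before LPS, then 2.94 after 4 h, 17.1 after 8 h, 24.2 after 12 h and 2.21 after 24 h. The 12 h level was 8.22 times the larger of 4 h and 24 h. Fabp3, a fatty acid carrier, had 14.5, 100.3, 356, 322 and 42.8, and its levels at 8 h and 12 h were over 3 times those at 4 h and 24 h. Fabp5, a carrier of the same family and no member, was highest at 0 h with 2309, 756, 811, 686 and 894. Chpt1, which makes phosphatidylcholine, had 11.1, 10.7, 30.3, 37.7 and 22.7. Napepld, which makes N-acylethanolamines, had 1.12, 0.32, 4.71, 11.5 and 6.53. Napepld was lowest at 4 h, at 2.78% of its peak. St3gal5, the synthase of ganglioside GM3, peaked at 103 FPKM at 8 h, and Abca7, a lipid transporter, at 23.6 FPKM at 12 h. On a list of 73 measured genes of lipid, cholesterol and eicosanoid metabolism, 15 passed the bounds on level and 0 h. Of these, 6 were members, a share above the 15.5% over all induced genes.

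**Figure D4:**
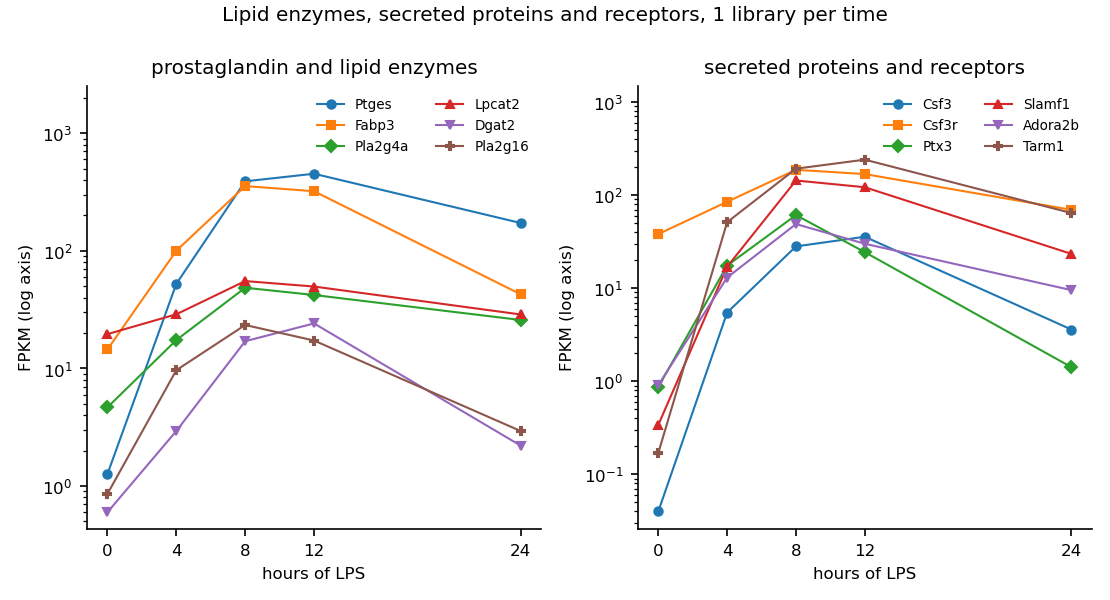
FPKM (log axis) against hours of LPS, 1 library per point, for 6 members of the prostaglandin and lipid group on the left and, on the right, for Csf3, Csf3r and Ptx3 with the receptors Slamf1, Adora2b and Tarm1. Ptges, Dgat2, Csf3 and Tarm1 are highest at 12 h and the others at 8 h. Ptges, Pla2g4a, Slamf1 and Tarm1 end at 24 h above their 4 h levels, Lpcat2 about level and the others below.

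Among enzymes of small molecules, Nos2, the inducible nitric oxide synthase, had the widest range, with 0.32 FPKM before LPS, then 291 after 4 h, 927 after 8 h, 1155 after 12 h and 761 after 24 h. About 25 reads stand behind the value before LPS, and at 24 h Nos2 remained at 65.9% of its peak. Arg2, the mitochondrial arginase, which draws on the same amino acid, had 0.84, 5.01, 26.2, 32.4 and 10.7, and was at 33.0% of its peak at 24 h. Pnp, the purine nucleoside phosphorylase, had 49.2, 579.9, 879, 597 and 248. Its neighbour and close copy Pnp2 had 1.16, 59.9, 132, 123 and 27.3. Upp1, which splits uridine, had 0.13, 15.8, 31.6, 26.7 and 10.8, from about 3 reads at 0 h. Reads shared by Pnp and Pnp2 make their separate values uncertain. These 3 phosphorylases were highest at 8 h and at 20.6% to 34.2% of the peak at 24 h. Hdc, which makes histamine, had 0.55, 26.9, 58.3, 43.03 and 2.85. Psat1, of serine synthesis, had 3.81, 19.4, 39.04, 24.9 and 1.78. Hdc and Psat1 were at 4.89% and 4.56% of their peaks at 24 h, and Psat1 then lay below its 0 h value. On a list of 59 measured enzymes of amino acids, polyamines and nucleotides 11 passed the bounds on level and 0 h. Of these, 4 were members (36.4%, beside 15.5% of all induced genes).

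Enzymes of sugar metabolism and mitochondria were also members. Hk3, a hexokinase of myeloid cells, had 133, 201, 366, 488 and 321. Pfkfb3, which makes the activator of phosphofructokinase, had 8.47, 193, 270.4, 327 and 201. These were the 2 members on a list of 40 glycolysis and hypoxia genes, 19 of which passed the bounds on level and 0 h. They were 10.5% of those 19, beside 15.5% of all induced genes, and 1 more gene met the rule but was left out by name. Pfkfb3 did not meet the rule with centred libraries or with the length trend removed. Gapdh, a glycolytic enzyme on that list, was instead highest at 24 h with 954, 568, 1088, 1958 and 2900.1. Pkm, the pyruvate kinase, was too, with 742, 379, 601, 1360.5 and 2235. Aldh1b1, a mitochondrial aldehyde dehydrogenase, had 5.48, 22.9, 66.4, 51.9 and 21.96. Pdk3, which switches off pyruvate dehydrogenase, Gmppb, which makes GDP-mannose, and Gphn, of molybdenum cofactor synthesis, peaked between 14.2 and 19.6 FPKM. Adprm, a phosphatase, peaked at 30.7 FPKM at 8 h. Its interval overlaps that of Sco1, a copper chaperone of cytochrome oxidase that peaked at 18.6 FPKM at 8 h, and without a stated strand of counting their reads cannot be told apart where they overlap.

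The member with the highest level was Prdx5, a peroxiredoxin of mitochondria, peroxisomes and cytosol, at 269 FPKM before LPS, then 853 after 4 h, 2501 after 8 h, 2885 after 12 h and 1588 after 24 h. Sod2, the mitochondrial superoxide dismutase, had 22.5, 321, 545, 479 and 278. Txn1, thioredoxin, had 244, 312, 606, 538 and 371. All 3 take part in the defence against oxygen radicals, and at 24 h they were 1.52 to 12.4 times as high as at 0 h. Hspa1a, an inducible heat shock protein of the Hsp70 family, had 0.94, 2.85, 15.9, 83.5 and 43.1. Hspa1b, its near-identical neighbour on chromosome 17, had 0.54, 3.27, 11.1, 52.8 and 27.3. Reads of these 2 genes are hard to divide, so their separate values are uncertain. Both stood out by the step from 8 h to 12 h, with ratios of 5.26 and 4.77. On a list of 60 stress genes 13 passed the bounds on level and 0 h. Of these, 4 were members (30.8%, beside 15.5% of all induced genes). Fth1, the ferritin heavy chain, was not among them, with 25573, 11905, 20058, 24090.1 and 33082.

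Cell death and mitochondrial members were mostly highest at 8 h (6 of 7). Gsdmd, which forms the pore of pyroptosis, had 47.2, 117, 181, 149.9 and 115. Xkr8, a scramblase that exposes phosphatidylserine on dying cells, had 2.33, 29.5, 47.2, 35.4 and 7.12. Xkr8 was at 15.1% of the peak at 24 h, and Gsdmd at 63.5%. Cycs, cytochrome c, peaked at 88.5 FPKM at 8 h. Gsdmd, Xkr8 and Cycs missed the 4 h bound with centred libraries. Ier3, an early response gene that modulates survival, had 14.4, 91.01, 163, 219 and 131, highest at 12 h. AA467197, the counterpart of human NMES1, a mitochondrial protein, had 1.3, 100.4, 355, 284 and 102, from about 18 reads at 0 h. Of 49 genes of death and survival on a list, 22 passed the bounds on level and 0 h. Of these, 3 were members (13.6%, a share near the 15.5% over all induced genes).

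Signalling members included kinases, phosphatases and adaptors. Fgr, a Src-family kinase of myeloid cells, peaked at 15.9 FPKM at 12 h. Irak3, the inhibitory IRAK of TLR signalling, had 8.55, 38.8, 88.4, 101 and 60.9. Ptpn1, a tyrosine phosphatase, had 56.6, 81.3, 146, 144 and 89.9. Irak3, Ptpn1 and Lgals9 were the members on a list of 44 inhibitors of signalling, of which 22 passed the bounds on level and 0 h. They were 13.6% of the 22, a share near the 15.5% over all induced genes. Nfkbia, the NF-kappaB inhibitor on that list, was highest at 4 h with 58.95, 881, 671, 469.9 and 318. Dok3, an inhibitory adaptor, had 31.9, 7.23, 55.2, 64.8 and 29.8. It was the only member to lie 2-fold or more below 0 h at 4 h on the log2(FPKM + 1) scale. Scimp, a transmembrane adaptor of TLRs, had 2.07, 10.7, 46.2, 67.9 and 29.9. Rasgrp1, an activator of Ras, had 0.06, 5.08, 18.1, 24.5 and 13.3, from about 6 reads at 0 h. Rac3, a small GTPase, had 4.97, 5.95, 23.7, 18.2 and 2.72, with a peak 3.98 times the larger of 4 h and 24 h. Spata13, Rhoq, the kinases Pim3 and Nek6, Gng12, Agtrap, Btg3, Itprip and Ublcp1 peaked between 13.7 and 98.4 FPKM.

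Of 101 transcription factors measured on a list, 32 passed the bounds on level and 0 h and 2 of these were members (6.25%, beside 15.5% of all induced genes), or 3 with centred libraries. Hif1a, the oxygen-regulated factor, was at 17.4 FPKM before LPS, then 68.3 after 4 h, 120.0 after 8 h, 139 after 12 h and 43.99 after 24 h. Batf, which pairs with Jun proteins, was at 5.9, 84.5, 161, 106 and 57.2. Hif1a was highest at 12 h and Batf at 8 h. Gfi1, a repressor of myeloid cells that was not on that list, was at 0.1, 11.9, 22.2, 3.59 and 0.14, from about 5 reads at 0 h. Its level at 12 h was already 16.2% of that at 8 h, and at 24 h 0.631%. Lmo4, a LIM-only cofactor, peaked at 127 FPKM at 8 h, Setd8, which methylates histone H4, at 75.03 FPKM at 8 h, Hmgn3, a nucleosome-binding protein, at 35.1 FPKM at 8 h and Mina, an oxygenase, at 26.7 FPKM at 12 h. Nfkb2, on the same list as Hif1a, was highest at 4 h with 20.3, 326, 295, 182 and 81.9.

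In the group of cytoskeleton and membrane traffic, 14 of 19 members were within 2-fold of 0 h at 24 h, against 66 of all 169. This follows in part from the rule, since its 24 h bound keeps members with a small rise over 0 h within 2-fold at 24 h. The group's median level at 0 h was 29.2% of the peak, against 12.9% over all members. Chmp4b, the ESCRT-III subunit that cuts membrane necks, was at 164 FPKM before LPS, then 282 after 4 h, 503 after 8 h, 391 after 12 h and 186 after 24 h. Tax1bp1, an autophagy receptor and partner of A20, was at 86.1, 140.2, 353, 270.4 and 119. Csrp1, a LIM protein of the actin cytoskeleton, was at 52.9, 115, 181, 108 and 26.9. Cnn2, the actin-binding calponin, was at 34.2, 37.2, 90.1, 78 and 17.01. Mapre2, which binds microtubule ends, was at 39.99, 44.4, 82.6, 54.8 and 19.8. The last 3 were the lowest members at 24 h relative to 0 h on the log2(FPKM + 1) scale, with FPKM ratios of 0.496 to 0.509. Fscn1, the actin bundler fascin, had 1.95, 17.8, 29.9, 18.2 and 8.57, from a low level before LPS. Actb, cytoplasmic beta actin, was no member, with 2566, 4974, 6187, 3570.2 and 1637. Clic5, of the chloride intracellular channel family, had 0.14, 2.62, 14.6, 38.8 and 16.1, from about 15 reads at 0 h. Cyfip2, of the WAVE complex, had 20.2, 13.99, 21.7, 51.95 and 24.9, and its 12 h value was 2.40 times that at 8 h.

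The rest of that group peaked between 15.2 and 217 FPKM. It held Anxa6, a calcium-dependent membrane binder, the actin-binding adaptor Dbnl, the raft protein Flot1, the beta tubulin Tubb6, the autophagy scramblase Atg9a, the formin Diaph2, and Hook2, Rilpl1, Ric1, Tbc1d9b and Plekha4. With centred libraries 11 of the 19 met the rule, and those that did not included Csrp1, Chmp4b, Fscn1 and Dbnl.

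Channels, transporters, ubiquitin ligases and cell cycle genes made small groups. Clcn7, the chloride/proton exchanger of lysosomes, had 69.6, 149, 253, 298 and 139. Marchf1, the ligase that removes MHC class II from the surface, had 11.8, 23.6, 88.2, 104 and 68.7. Clcn7 was at 46.7% and Marchf1 at 66.0% of the peak at 24 h. Abcc5, an exporter of cyclic nucleotides, peaked at 85.1 FPKM at 12 h, Lrrc8d, of the volume-regulated anion channel, at 54.01 FPKM at 12 h, Mfsd7a at 78.6 FPKM at 8 h and the ligase gene Rnf149 at 346 FPKM at 8 h. Ccnd3, which encodes cyclin D3, had 21.1, 18.8, 38.5, 65.7 and 38.6, highest at 12 h. Cdkn2d, an inhibitor of its kinase partners, peaked at 31.9 FPKM at 8 h, and the mitotic genes Tpx2 and Mad2l1 at 10.9 and 10.5 FPKM, also at 8 h. All 4 cell cycle members were within 2-fold of 0 h at 24 h, against 66 of all 169. This too follows in part from the 24 h bound of the rule, since their peaks were only 2.69 to 4.87 times 0 h.

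For 11 members no role was assigned. Lrrc75a had 5.75, 4.82, 23.02, 23.6 and 5.12. Tmem178 had 1.34, 0.8, 6.99, 10.4 and 2.53. Both were lower at 4 h than at 0 h and stood over 4 times above both flanking times at 12 h. Gm15056 was listed at 0 at 0 h and peaked at 28.1 FPKM at 12 h, and no ratio to 0 h is given for it. AB124611, 1600014C10Rik, Cnp, Rcl1, Eva1b, I830077J02Rik, Fam46c and Dhx40 peaked between 19.9 and 274 FPKM.

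The rule set the peak against 0 h, 4 h and 24 h, but it did not set 24 h or 4 h against 0 h. At 24 h, 103 of the 169 members (60.9%) exceeded their 0 h level by 2-fold or more on the log2(FPKM + 1) scale, 66 lay within 2-fold and 0 were at least 2-fold lower. With a pseudocount of 0.1 in place of 1, 3 members, Psat1, Mapre2 and Cnn2, were at least 2-fold lower. Among the other induced genes 69.6% were higher and 0.652% lower, and among all genes with a mean of at least 1 FPKM 11.3% were higher and 14.5% lower. The median log2 difference was 1.34 for members, 1.47 for the other induced genes and -0.11 for all. At 4 h, 106 members (62.7%) lay above 0 h by 2-fold or more, 62 within 2-fold and 1 lower (3 with a pseudocount of 0.1). The corresponding shares were 77.4% and 1.20% of the other induced genes, and 12.2% and 38.1% of all genes, with medians of 1.37, 1.94 and -0.70. The members' shares depend on the rule, since a bound on 4 h and 24 h against the peak favours genes that are lower at those times. With centred libraries 146 members exceeded 0 h by 2-fold or more at 4 h, and 109 did at 24 h.

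**Figure D5:**
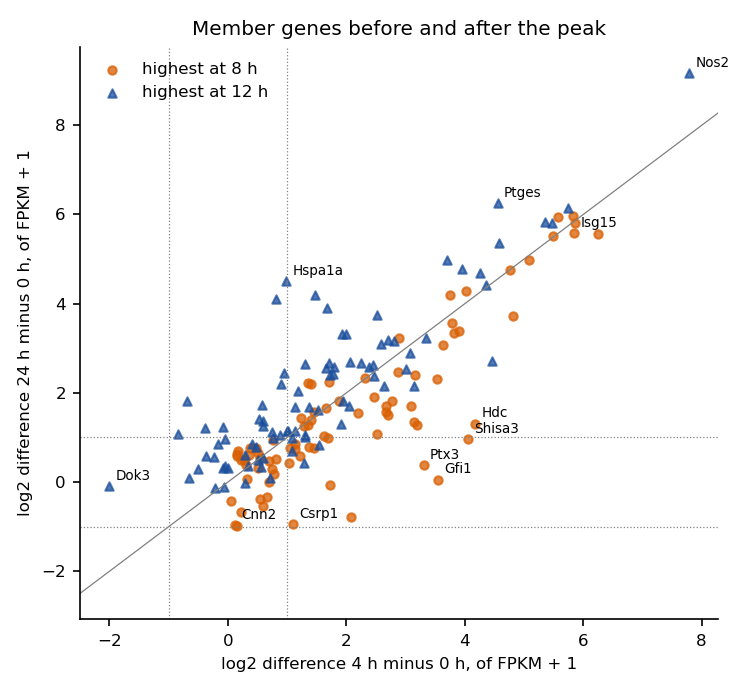
Difference from 0 h on the log2(FPKM + 1) scale at 4 h (horizontal axis) and at 24 h (vertical axis) for each of the 169 members, with orange circles for genes highest at 8 h and blue triangles for those highest at 12 h, dotted lines at 2-fold and a solid line where both differences are equal. Most blue triangles lie above the solid line and most orange circles below it, and no gene lies below the lower dotted line on the vertical axis on this scale, while with a pseudocount of 0.1 there would be 3.

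Members highest at 8 h and those highest at 12 h differed on both sides of the peak, in part by construction. Those highest at 8 h were at a median of 51.5% of the peak at 4 h and 37.7% at 24 h. Those highest at 12 h were at 38.3% and 51.6%. In the deposited FPKM all 15 members with a 4 h value below that at 0 h were highest at 12 h. That count depends on the scaling, since the median gene itself had a log2 ratio to 0 h of -0.83 at 4 h. The FPKM ratio of 4 h to 0 h was 0.226 for Dok3, 0.286 for Napepld, 0.418 for Mcemp1 and 0.597 for Tmem178. The median peak was 94.3 FPKM in the first set and 59.1 FPKM in the second. At 24 h, 40 of 82 in the first and 26 of 87 in the second were within 2-fold of 0 h. At the extremes, 4 members were at least 2 times higher at 8 h than at 12 h, namely Gfi1, Mad2l1, Ptx3 and Hmgn3, and 7 were at least 2 times higher at 12 h, namely Hspa1a, Hspa1b, Mcemp1, Clic5, Napepld, Gdf15 and Cyfip2.

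Genes just inside and just outside each bound show how fine the selection was. The lowest ratios of the peak to 0 h inside were 2.031 for Dok3, 2.066 for Mapre2 and 2.147 for Anxa6, and Cnppd1 was outside at 1.994, Ndufs4 at 1.956 and Rnaseh2b at 1.946. The lowest peaks inside were 10.42 FPKM for Tmem178, 10.470 for Mad2l1 and 10.800 for Lpar1, and those next outside were 9.710 for Timeless, 9.580 for Ifitm7 and 9.390 for Trpm4. Against the larger of 4 h and 24 h, Zbp1 and Abcc5 were inside at 1.504 and Dbnl at 1.507, while Serp1 lay just under the bound, and Acsl5 at 1.499 and Pou2f2 at 1.499 were outside. At 15 FPKM on a 1 kb transcript the counting interval alone is 13.3 to 16.9 FPKM, and the spread between replicates, which would come on top of it, cannot be had from 1 library.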

How the data were processed

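RNA from 5 samples of mouse macrophages was sequenced at Beijing Genomics Institute on the BGISEQ-500, per the labels' protocols. The authors deposited 1 table of FPKM, which per the file headers has 1 column for each library. The submitters' processing notes name Bowtie2, RSEM and GRCm38. What versions and annotation were used, and whether genes were filtered, is not given in the sources used here. Reads shared by near-identical genes are divided by estimate in tools of this kind, and whether strand was used in counting is not given.

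The rule was applied to the deposited FPKM as they stand (peak minimum 10 FPKM, 2 times 0 h, 1.5 times 4 h and 24 h). Differences of 24 h or 4 h against 0 h are on log2(FPKM + 1), a scale that shrinks ratios of low values, and counted from 2-fold for genes with a mean of at least 1 FPKM (9795 genes). With 1 library per time point there is no test and no p-value. The members and the gene lists were chosen with earlier results of these data known, and the roles were assigned after the values were seen. Some genes were named with values by a rule. It took the highest peaks, the largest ratios and up to 6 members per list. It also took the genes beside each bound and at most 2 other genes per list. Members outside this rule are named by their role. Many of these members are also given with values, among them Gfi1, Uba7, Psmb9, Hdc, Xkr8 and Chmp4b. Psmb5, Psmb6, Psmb7, Tap1 and Ptgs2, which are no members, were added outside this rule as counterparts of members. A few members that were counted are not reported here by name.

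Symbols that had become dates (20 genes) were looked up by identifier in RefSeq's GRCm38.p6 table, which held 13319 of the identifiers. Coordinates are from the same RefSeq table, and transcript lengths are from GENCODE M21. Promoters are from a RefSeq table (250 bases before to 50 after the start), and a gene with several windows counts once. Depth was estimated from low values: between 48.1% and 58.4% came out as whole reads, against 27.9% to 29.4% by chance, so it is an estimate only and whole reads were not recovered. The steps were tested on simulated data. Other scalings, pseudocounts, minimums and bounds were tried. Python 3.11.15, pandas 2.3.3, numpy 2.4.6 and matplotlib 3.10.9 were used.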

Additional observations from a re-analysis of the deposited data

How the results depend on the processing

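The number of members depends on the bounds. Against 169, the rule gave 564 genes without a minimum level, 53 with 2 times 4 h and 24 h, 295 with a looser bound, 106 with the mean of 8 h and 12 h as the peak and 71 with the smaller of them. Those highest at 8 h, 82 in the report, were then 195 without a minimum, 25 with 2 times, 159 with the looser bound, 54 with 4 times 0 h and 35 with the smaller value as the peak. Pseudocounts of 1 and 5 gave 163 and 138 genes, a minimum of 20 FPKM 146 and a ratio of 4 to 0 h 116. With 1 library per time point no library could be left out and the rule kept, except by taking 12 h alone (122 members) or 8 h alone (118) as the peak. These 2 settings, the removal of the length trend (208 genes, 122 of them members) and the use of each gene's first promoter window (16 members with an ISRE core against 17) were added after seeing the data. Members higher at 24 h than at 0 h numbered 85 with a pseudocount of 5 and 107 with 0.1, and those higher at 4 h 90 and 110. With 0.1, 3 members were at least 2-fold lower at 24 h and 3 at 4 h, against 0 and 1. No paired analysis was possible because each time point has 1 library. Depth limits the genes near 10 FPKM and the ratios to 0 h of genes with few reads there.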

Other observations

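Some members are neighbours on the chromosome. Of the 169, 37 lay within 100 kb of another member, in 18 groups. Psmb9 (chromosome 17, 34182030 to 34187330), Psmb8 (34198195 to 34201454) and Tap2 (34204479 to 34216321) formed the only group of 3 (GRCm38.p6, RefSeq). Psme1 (55578494 to 55581527) and Psme2 (55587440 to 55591101) lie side by side on chromosome 14, and Nos2 (78920787 to 78960226) and Lgals9 (78962979 to 78984924) on chromosome 11. In the pair of Nos2 and Lgals9 both were highest at 12 h. In the pair of Psme1 and Psme2 the former was highest at 12 h and the latter at 8 h. Other pairs highest at 12 h were Ier3 and Flot1, Enpp4 and Clic5, Lrrc25 and Gdf15, Hspa1a and Hspa1b, and Pilra and Pilrb2. Pairs highest at 8 h were Adprm and Sco1, Pnp and Pnp2, Oas1a and Oas1g, and Setd8 and Rilpl1. Peak times differed in Cnn2 and Abca7, Tgtp2 and Olfr56, Mmp14 and Lrp10, Phf11a and Phf11b, Ifitm2 and Ifitm3, and Uba7 and Gmppb. They also differed in the group of 3, with Psmb9 highest at 8 h and Psmb8 and Tap2 at 12 h. How often neighbours would fall together by chance was not tested.

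Members had shorter transcripts, at the median, than the other genes. The median of the longest protein-coding transcript was 2516 nt for members, 3398 nt for the other genes induced at 8 h or 12 h and 3036 nt for all genes with a mean of at least 1 FPKM. The shift of levels between libraries also varied with transcript length, and its part in which genes met the rule was tried by removing the trend, which kept 122 of the 169 members.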
